A study of Mus musculus with 6 samples.

Results

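The genes described here are the ligands and receptors of axon guidance: semaphorins and their plexin receptors, slits and robos, netrins with Dcc and the Unc5 receptors, and ephrins with the Eph receptors. They were chosen by gene symbol alone, which gave 71 of the 31053 genes in the files. The 71 comprise 34 ligands, 32 receptors and 5 genes that the symbol pattern caught without being either (Unc50, Unc5cl and the antisense genes Plxna4os1, Plxna4os2 and Plxna4os3). All 71 have a position in the GRCm38 annotation, and 32 of them overlap an annotated gene on the opposite strand.

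Nuclei came from the hippocampus of male C57BL/6J mice aged 12 weeks, and each library pooled 5 mice. The treated mice were injected with CI-994, a benzamide inhibitor of class I histone deacetylases (HDACi), at 30 mg/kg, and the others with vehicle (Veh), 1 h before exposure to a chamber, and tissue was taken 1 h after it. Contextual fear conditioning (CFC) paired the chamber with 2 foot shocks of 0.2 mA, and Context mice received none. The groups were HDACi-CFC (2 libraries), Veh-CFC (2 libraries), HDACi-Context (1 library) and Veh-Context (1 library). For the last of these the title and treatment label say vehicle and the description says HDACi, so it is called the library labelled Veh-Context and went with vehicle. Because mice were pooled, p-values measure the spread between pools.

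Axon guidance cues are secreted or membrane-bound proteins that attract or repel a growing axon by binding receptors on its growth cone. Many stay expressed in the adult brain, where they act at synapses, in myelinating cells and in immune cells. In the hippocampus the Eph and ephrin, semaphorin and slit families are known for layer-specific wiring and for the shaping of dendritic spines.

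The libraries held 24508202 to 45570814 UMIs (unique molecular identifiers, 1 per captured RNA molecule), and 26839 of 30323 barcodes were kept as nuclei. Any pair of libraries shared 1 to 11 barcodes. Clustering without the guidance genes gave 28 clusters, and 15 cell classes were named from marker genes, each written with "-like". The DG granule-like class had 7282 nuclei and the CA1-like class 4438. A further 2682 nuclei stayed unnamed, 1728 of them in a cluster led by Trhr and Ntn5 whose best list was DG granule but which had no marker of that list among its leading genes. Levels are in CPM, the UMIs of a gene in a class scaled to a common total, with TMM scaling (below) in the CFC comparison and plain totals elsewhere. UMIs lost to fewer RNA molecules per nucleus and to fewer nuclei cannot be told apart in a class sum alone. The CFC comparison therefore also gives counts of called genes with scaling to the number of nuclei. Free RNA from broken cells can add UMIs of neuronal genes to every class.

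Levels across classes were described in the 3 vehicle libraries. Of the 71 genes, 63 reached 100 UMIs over the vehicle libraries. The class with the highest median level stood apart from the next class in all 3 libraries for 29 of the 63, and for 27.9% of all 16570 genes with as many UMIs. Immature neuron-like nuclei were the highest class for 13 genes, and DG granule-like and Cajal-Retzius-like nuclei for 8 each. When each nucleus was assigned by its own markers in place of its cluster, 35 of the 63 kept the same highest class. That assignment left 4667 of the 7282 DG granule-like nuclei unnamed. It also put 185 interneuron-like nuclei in the Cajal-Retzius-like class, beside 255 from that class itself. Most genes highest in immature neuron-like or Cajal-Retzius-like nuclei changed class, among them Sema5a, Sema6d, Epha4, Plxna4 and Robo1. Of the genes that changed class, 8 had stood apart from the next class.

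Among the ligands, the secreted semaphorin Sema3c had a median of 901 CPM (717 to 983 over the libraries named above) in immature neuron-like nuclei and 301 CPM in endothelial-like nuclei, the next class. By their own markers, 91 of the 183 endothelial-like nuclei were mural/leptomeningeal-like and 84 endothelial-like. Sema3d, a paralogue of Sema3c, was highest in OPC-like nuclei (oligodendrocyte precursors), at 434 to 569 CPM. Those 2 patterns were apart from the next class in every vehicle library. OPC-like nuclei were also the highest class for the transmembrane semaphorin Sema5b, at 239 to 282 CPM, and for Ntn1, a diffusible cue that can attract or repel axons, at 160 to 227 CPM. Efnb3, an ephrin of myelin, reached 159 to 302 CPM in oligodendrocyte-like nuclei. Slit2, a secreted repellent, was highest in mossy-like nuclei at 490 to 662 CPM, which overlapped CA3-like nuclei at 522 to 669 CPM, the highest class by the nuclei's own markers.

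Receptors were divided between classes as well. Plxnb3, a plexin of oligodendrocytes, had 112 to 229 CPM in oligodendrocyte-like nuclei and a median over classes of 0.582 CPM. Plxnb1 had 93.4 to 105 CPM in astrocyte-like nuclei, and Plxnd1, the receptor of Sema3e, had 42.3 to 81.4 CPM in Cajal-Retzius-like nuclei. Cajal-Retzius-like nuclei were the highest class for Robo2 (3065 to 3549 CPM) and the netrin receptor Unc5b (118 to 154 CPM). Oligodendrocyte-like nuclei followed closely for Unc5b, at 108 to 117 CPM, and were its highest class when nuclei were assigned by their own markers. Robo3, a divergent robo that in the spinal cord regulates midline crossing, was highest in DG granule-like nuclei at 44.5 to 68.6 CPM. Unc5d reached 1572 to 1624 CPM in interneuron-like nuclei, against 419 to 628 CPM in CA2-like nuclei. Epha7 was highest in DG granule-like nuclei at 1262 to 1423 CPM, and Dcc, the attractive netrin receptor, in immature neuron-like nuclei at 4106 to 4721 CPM. Epha8 had 11.4 to 19.2 CPM in mossy-like nuclei, which overlapped mural/leptomeningeal-like nuclei at 5.39 to 14.8 CPM. Over all classes of the vehicle libraries Epha8 had 126 UMIs and Plxnd1 148, so these levels rest on few UMIs. Each vehicle library held 20 to 49 mural/leptomeningeal-like and 38 to 46 Cajal-Retzius-like nuclei.

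**Figure D1:**
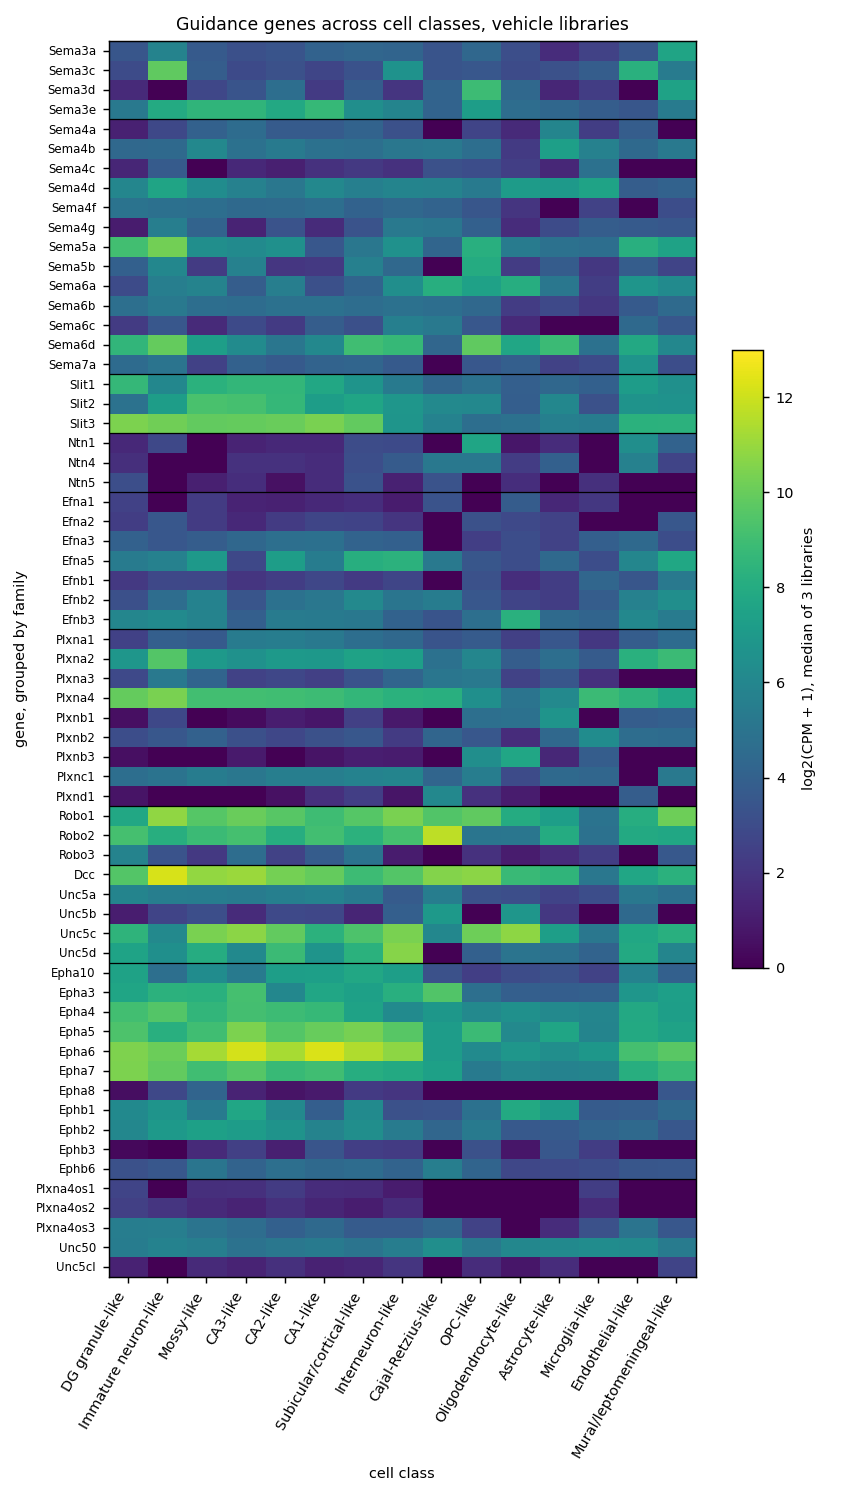
Median level of 63 guidance genes (rows, grouped by family) in 15 cell classes (columns) over the 3 vehicle libraries, as log2(CPM + 1). Plxnb3 is bright in oligodendrocyte-like nuclei, Ntn1 and Sema3d in OPC-like nuclei and Robo2 in Cajal-Retzius-like nuclei, while Robo1 and Epha5 are spread over most neuronal classes.

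HDACi-CFC was compared with Veh-CFC in 8 classes, which asks which guidance genes differed in level with the inhibitor when mice had been conditioned. Folds and "rose" or "fell" are relative to the bulk of genes in the class (TMM scaling, by a trimmed mean over genes). With scaling to library totals the median of all genes in DG granule-like nuclei was -0.35 on the log2 scale, and 0.01 with TMM. In these nuclei 55 genes passed the filter on low counts, and 22 rose and 8 fell at an adjusted p below 0.05 (edgeR quasi-likelihood test, Benjamini-Hochberg). Of all 14844 genes tested, 23.3% rose and 25.9% fell, 49.2% in either direction. The median log2 fold change was 0.22 over the 55 genes and 0.01 over all genes. With library totals 12 rose and 22 fell, beside 9.99% and 45.4% of all genes, and with scaling to the number of nuclei 8 rose and 18 fell, beside 4.4% and 41.7%. All 8 that fell stayed called lower under both other scalings. Without Veh-CFC replicate 1, and with DESeq2, 5 guidance genes were called lower.

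Slit1 and Slit3 rose in DG granule-like nuclei while the third slit fell. Slit3 had 2583 and 2524 CPM in HDACi-CFC, against 1241 and 1232 CPM in Veh-CFC. Its log2 fold change was 1.05 ± 0.05 (SE, adjusted p = 1.23e-13, edgeR quasi-likelihood). Slit1 had 833 and 683 CPM in HDACi-CFC and 371 and 350 CPM in Veh-CFC, a log2 fold change of 1.07. Slit2 had 13.6 and 16.8 CPM in HDACi-CFC and 25.2 and 25.9 CPM in Veh-CFC, so it fell by 0.73 on the log2 scale (SE 0.15, adjusted p = 0.00036, edgeR). The HDACi-CFC libraries lie on one side of the Veh-CFC libraries in each, which the choice of named genes required. Slit1 lies at chr19:41600257-41743665 on the minus strand (GRCm38), Slit2 at chr5:47983138-48307733 and Slit3 at chr11:35121224-35708507, both on the plus strand. Slit2 and Slit3 each overlap annotated genes on both strands, and the sources used here do not state whether counting used strand.

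Among the semaphorins, 5 of 11 tested transmembrane or membrane-anchored members (classes 4 to 7) rose and 1 fell. Sema7a, which is anchored by a lipid and signals through integrins and Plxnc1, had 42.1 and 40.2 CPM in HDACi-CFC, against 19.7 and 18.0 CPM in Veh-CFC. Sema4d, a ligand of plexins B1 and B2, had 119 and 125 CPM in HDACi-CFC and 55.6 and 59.2 CPM in Veh-CFC. Their log2 fold changes were 1.13 and 1.09. Sema5a had 873 and 948 CPM in HDACi-CFC and 477 and 474 CPM in Veh-CFC. Sema3e, the secreted ligand of Plxnd1, fell to 18.4 and 26.3 CPM in HDACi-CFC, against 32.8 and 36.2 CPM in Veh-CFC. Sema6d, Efnb3 and Epha6 were also called higher, but their log2 fold changes were below 0 with library totals (-0.10, -0.08 and -0.02) and per nucleus (-0.19, -0.17 and -0.11).

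Of 7 ephrins tested in DG granule-like nuclei 1 rose and 1 fell. Efna5, a membrane-anchored ligand of EphA receptors, had 14.2 and 14.4 CPM in HDACi-CFC, against 36.9 and 37.0 CPM in Veh-CFC. Its decrease of 1.37 on the log2 scale (SE 0.14, adjusted p = 1.84e-08, edgeR) was the largest of any called guidance gene in that class. It lies at chr17:62604184-62881317 on the minus strand and overlaps no annotated gene.

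Of 10 Eph receptors tested 4 rose and 2 fell. Epha4, which binds ephrins of both classes and acts at dendritic spines, had 1100 and 1060 CPM in HDACi-CFC and 490 and 469 CPM in Veh-CFC. It had the highest log2 fold change of the called guidance genes, 1.17 ± 0.06 (SE, adjusted p = 2.15e-13, edgeR). Epha3 had 117 and 127 CPM in HDACi-CFC and 155 and 178 CPM in Veh-CFC, a fall of 0.45 on the log2 scale (adjusted p = 0.0001, edgeR). Ephb2, a receptor that clusters with NMDA receptors, had 49.3 and 44.3 CPM in HDACi-CFC, against 56.3 and 55.7 CPM in Veh-CFC. Its adjusted p was 0.038 (edgeR). Epha4 lies at chr1:77367185-77515088 and Epha3 at chr16:63543534-63864175, both on the minus strand.

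Of 6 plexins tested 2 rose and 1 fell, of 3 robos 2 rose and 0 fell, and of 4 netrin receptors 2 rose and 1 fell. Plxna4, a receptor subunit for class 3 semaphorins, had 1693 and 1626 CPM in HDACi-CFC and 912 and 843 CPM in Veh-CFC. Plxna4 overlaps Plxna4os1, Plxna4os2 and Plxna4os3 on the opposite strand, so their UMIs may not be separable. Plxnc1, a receptor of Sema7a, fell to 15.9 and 12.7 CPM in HDACi-CFC, against 22.4 and 20.8 CPM in Veh-CFC. Unc5a, a repulsive netrin receptor, had 101 and 104 CPM in HDACi-CFC and 49.9 and 50.1 CPM in Veh-CFC. Unc5c of the same family had 264 and 263 CPM in HDACi-CFC and 313 CPM in both Veh-CFC libraries, and fell by 0.25 on the log2 scale (adjusted p = 0.0045, edgeR). The astrocyte marker list summed to 1606 and 1709 CPM in DG granule-like nuclei of HDACi-CFC, against 1045 and 1018 CPM in Veh-CFC, with 10 of 10 markers detected in every library. Slc4a4, on this list, was also among the leading genes of a DG granule-like cluster. The OPC and endothelial lists were higher in HDACi-CFC as well. The oligodendrocyte list was lower, at 348 and 378 CPM in HDACi-CFC and 422 and 436 CPM in Veh-CFC, and so was the microglia list. The part of other cell types in these results was not tested.

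**Figure D2:**
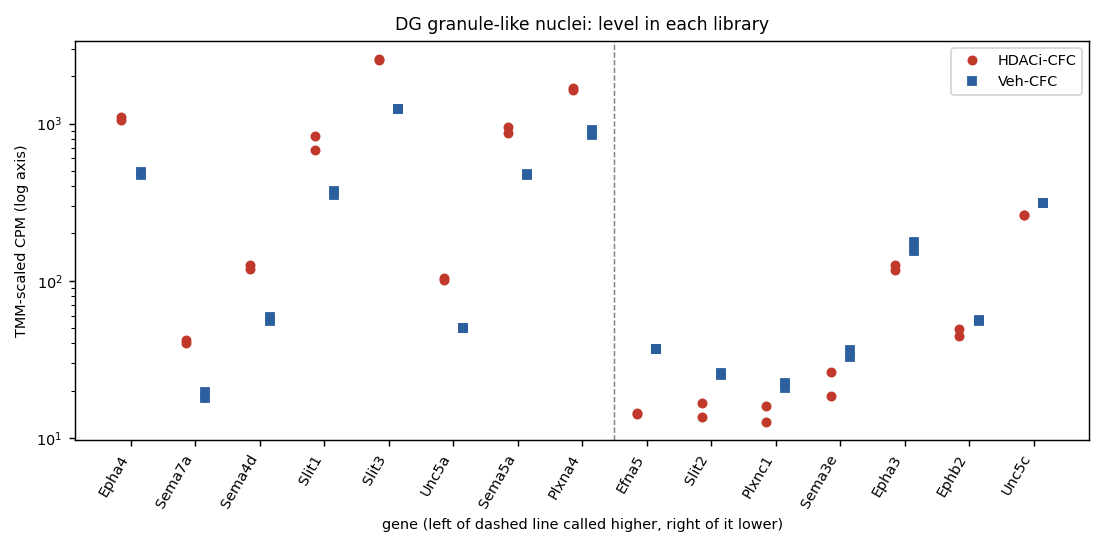
TMM-scaled CPM (log axis) of the 15 named guidance genes in DG granule-like nuclei, with the 2 HDACi-CFC libraries as circles left of the 2 Veh-CFC libraries as squares. The genes were chosen for groups that do not overlap, and Efna5 shows the widest gap among those that fell.

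Promoter sequence is shown for 3 pairs of named genes of 1 family that went opposite ways in DG granule-like nuclei, Slit3 with Slit2, Epha4 with Epha3 and Unc5a with Unc5c. Each line gives 250 bases before to 50 after the annotated start, read 5′ to 3′ on the gene's strand (RefSeq, GRCm38.p6). Capitals mark GGGCGGG on either strand. The windows are chr11:35121206-35121505 (Slit3, plus), chr5:47982905-47983204 (Slit2, plus), chr1:77515039-77515338 (Epha4, minus), chr16:63864126-63864425 (Epha3, minus), chr13:54949161-54949460 (Unc5a, plus) and chr3:141465314-141465613 (Unc5c, plus).
Slit3: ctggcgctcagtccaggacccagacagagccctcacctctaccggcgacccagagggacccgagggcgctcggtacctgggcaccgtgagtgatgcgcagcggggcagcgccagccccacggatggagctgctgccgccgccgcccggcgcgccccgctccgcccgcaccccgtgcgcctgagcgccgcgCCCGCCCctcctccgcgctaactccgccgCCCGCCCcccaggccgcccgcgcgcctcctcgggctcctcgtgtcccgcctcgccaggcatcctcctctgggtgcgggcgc
Slit2: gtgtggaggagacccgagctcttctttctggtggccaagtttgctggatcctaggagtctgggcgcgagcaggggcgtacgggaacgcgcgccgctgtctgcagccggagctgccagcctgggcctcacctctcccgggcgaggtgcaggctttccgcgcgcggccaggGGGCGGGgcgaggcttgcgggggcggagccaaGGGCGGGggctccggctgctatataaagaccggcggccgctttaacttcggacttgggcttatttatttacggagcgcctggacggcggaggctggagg
Epha4: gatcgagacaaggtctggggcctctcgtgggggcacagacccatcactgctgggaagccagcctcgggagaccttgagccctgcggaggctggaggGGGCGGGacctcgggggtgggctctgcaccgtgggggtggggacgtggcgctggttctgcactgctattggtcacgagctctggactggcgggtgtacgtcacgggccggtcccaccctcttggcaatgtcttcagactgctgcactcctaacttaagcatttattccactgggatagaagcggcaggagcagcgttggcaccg
Epha3: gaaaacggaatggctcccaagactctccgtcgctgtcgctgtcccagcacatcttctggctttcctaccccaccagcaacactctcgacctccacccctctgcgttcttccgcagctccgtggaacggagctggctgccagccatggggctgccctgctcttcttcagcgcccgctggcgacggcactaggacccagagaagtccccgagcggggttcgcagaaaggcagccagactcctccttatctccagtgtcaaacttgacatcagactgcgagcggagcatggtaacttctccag
Unc5a: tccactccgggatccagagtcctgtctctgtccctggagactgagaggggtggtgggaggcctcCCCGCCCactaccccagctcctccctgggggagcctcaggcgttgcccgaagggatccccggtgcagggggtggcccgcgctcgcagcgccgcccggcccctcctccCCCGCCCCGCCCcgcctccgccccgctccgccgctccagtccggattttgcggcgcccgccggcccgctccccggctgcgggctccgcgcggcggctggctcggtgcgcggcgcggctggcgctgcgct
Unc5c: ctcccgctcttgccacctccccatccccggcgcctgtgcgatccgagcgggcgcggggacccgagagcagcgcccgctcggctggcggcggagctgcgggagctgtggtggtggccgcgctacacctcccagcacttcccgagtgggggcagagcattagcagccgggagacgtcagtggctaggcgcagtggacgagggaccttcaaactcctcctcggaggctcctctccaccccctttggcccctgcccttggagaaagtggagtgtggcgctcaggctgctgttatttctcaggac
The motif occurred 2 times in Slit3 and 2 times in Slit2, 1 time in Epha4 and 0 times in Epha3, and 3 times in Unc5a, where 2 matches overlap, and 0 times in Unc5c. None of the 6 windows held the CRE motif TGACGTCA on either strand, none held the AP-1 motif TGANTCA and none held the E-box CACGTG, so no marked match overlaps one of these. Of 74 promoters of 58 guidance genes, 59.5% held GGGCGGG, against 25.6% of all 32851 promoters. The median number of CpG dinucleotides was 19.5 in those 74 and 7 in all.

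In CA1-like nuclei 59 guidance genes were tested, 23 rose and 5 fell, beside 18.7% and 20.5% of all genes (39.2% either way). With library totals 10 rose and 15 fell, beside 7.55% and 42.2%, and scaling to the number of nuclei gave 1 and 11, beside 1.81% and 32.8%. Without Veh-CFC replicate 2 or HDACi-CFC replicate 2, 3 were called lower. Epha4 had 808 and 728 CPM in HDACi-CFC and 377 and 375 CPM in Veh-CFC. Slit1 had 439 and 363 CPM in HDACi-CFC, against 201 and 217 CPM in Veh-CFC, and Slit3 had 2319 and 2127 CPM, against 1180 and 1171 CPM. These 3 were the highest called log2 fold changes above the level limit, 0.92 to 1.03. Ephb2 fell to 32.9 and 27.7 CPM in HDACi-CFC, against 49.7 and 50.2 CPM in Veh-CFC (log2 -0.74, adjusted p = 7.44e-05, edgeR). Sema4f fell to 17.6 and 16.5 CPM in HDACi-CFC, against 22.5 and 25.1 CPM in Veh-CFC. Unc5c fell to 230 and 233 CPM in HDACi-CFC, against 332 and 296 CPM in Veh-CFC.

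In CA3-like nuclei 19 of 46 guidance genes rose and 0 fell, beside 14.1% and 12.2% of all genes (26.4% either way). Library totals gave 12 and 1, beside 6.4% and 26.7%, and scaling to the number of nuclei gave 1 and 1, beside 1.13% and 21.7%. Sema4d had 111 and 99.3 CPM in HDACi-CFC and 47.8 and 55.3 CPM in Veh-CFC. Epha4 had 1052 and 997 CPM in HDACi-CFC and 543 and 500 CPM in Veh-CFC. Slit3 had 1703 and 1582 CPM in HDACi-CFC, against 902 and 921 CPM in Veh-CFC.

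Interneuron-like nuclei had 22 of 49 guidance genes higher and 2 lower, beside 16.9% and 13.2% of all genes (30.1% either way). Library totals gave 13 and 5, beside 7.27% and 34.2%, and scaling to the number of nuclei gave 3 and 4, beside 1.45% and 28%. Without Veh-CFC replicate 1 or HDACi-CFC replicate 1, 1 was called lower. Plxna2, a semaphorin receptor, had 370 and 412 CPM in HDACi-CFC and 143 and 133 CPM in Veh-CFC, a log2 fold change of 1.51 ± 0.11 (SE, adjusted p = 9.7e-08, edgeR). Unc5b had 24.2 and 47.4 CPM in HDACi-CFC, against 12.9 and 16.0 CPM in Veh-CFC. Ntn1 had 12.4 and 15.5 CPM in HDACi-CFC, against 6.68 and 3.43 CPM in Veh-CFC. Efna5 fell here as well, to 241 and 204 CPM in HDACi-CFC, against 317 and 298 CPM in Veh-CFC. Sema4f had 6.91 and 13.7 CPM in HDACi-CFC and 21.8 and 18.3 CPM in Veh-CFC.

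Oligodendrocyte-like nuclei had 19 of 35 tested guidance genes higher and 1 lower, beside 20.6% and 17.9% of all genes (38.5% either way). Library totals gave 11 and 3, beside 9.97% and 36.5%, and scaling to the number of nuclei gave 5 and 1, beside 4.68% and 37.3%. With all 6 libraries in the fit 12 rose. The DG granule marker list summed to 4981 and 5297 CPM in oligodendrocyte-like nuclei of HDACi-CFC, against 3610 and 3603 CPM in Veh-CFC, with 10 of 10 markers detected in every library. In DG granule-like nuclei of Veh-CFC the same list summed to 5873 and 5890 CPM. In oligodendrocyte-like nuclei the CA1, CA3 and interneuron lists were lower in HDACi-CFC. The CA1 list was at 283 and 266 CPM in HDACi-CFC, against at least 379 CPM in both Veh-CFC libraries. The mossy list was higher, and the CA2 and subicular/cortical lists overlapped. The part of these lists in the results for oligodendrocyte-like nuclei was not tested. Sema4d, which oligodendrocytes are known to express, had 463 and 409 CPM in HDACi-CFC and 138 and 126 CPM in Veh-CFC. Its log2 fold change was 1.72 ± 0.13 (SE, adjusted p = 1.4e-07, edgeR). Unc5a had 22.2 and 14.2 CPM in HDACi-CFC and 5.18 and 7.04 CPM in Veh-CFC. Sema3d fell to 4.76 and 3.95 CPM in HDACi-CFC, against 19.9 and 17.9 CPM in Veh-CFC, on 8 UMIs against 51. Slit3 had 63.4 and 71.0 CPM in HDACi-CFC and 19.0 and 25.0 CPM in Veh-CFC. Its level in these nuclei was 3.34% of that in pooled neuronal classes of HDACi-CFC, and 10% of the 1688 well expressed neuronal genes were at or under 6.4%. Epha6, Slit1 and Plxna4 were also under that value. The part of free RNA in their differences was not tested.

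OPC-like nuclei had 9 of 32 tested guidance genes higher and 3 lower, beside 16.5% and 11.6% of all genes (28.1% either way). Library totals gave 8 and 7, beside 9.68% and 24.6%, and scaling to the number of nuclei gave 5 and 7, beside 6.21% and 31.6%. Sema5b had 858 and 740 CPM in HDACi-CFC and 244 and 273 CPM in Veh-CFC (log2 fold change 1.62, adjusted p = 7.22e-09, edgeR). Slit1 had 91.2 and 99.3 CPM in HDACi-CFC, against 26.5 and 20.5 CPM in Veh-CFC. Slit2 fell to 10.1 and 17.4 CPM in HDACi-CFC, against 72.4 and 39.0 CPM in Veh-CFC, on 10 UMIs against 49. Ntn4, a netrin of basement membranes, had 8 UMIs in HDACi-CFC and 35 in Veh-CFC. Epha5 had 324 and 320 CPM in HDACi-CFC and 441 and 431 CPM in Veh-CFC. None of the 3 falls was called by DESeq2 or without Veh-CFC replicate 1, and 1 guidance gene was called lower without HDACi-CFC replicate 2. Slit3 was called higher at 101 and 32.3 CPM in HDACi-CFC, against 24.1 and 18.5 CPM in Veh-CFC. It lay at 2.91% of its neuronal level in HDACi-CFC, where 10% of neuronal genes were at or under 9.51%. Slit2 was also under that value in HDACi-CFC, at 6.62%, and lay at 29.0% in Veh-CFC. Slit1 lay at 17.9% in HDACi-CFC and at 8.39% in Veh-CFC, where 10% of neuronal genes were at or under 17.8%. The part of free RNA in these differences was not tested.

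Astrocyte-like nuclei had 4 of 30 tested guidance genes higher and 0 lower, beside 16.8% and 14.2% of all genes (31% either way), and all 4 were transmembrane semaphorins. Library totals gave 3 and 2, beside 9.1% and 25.3%, and scaling to the number of nuclei gave 1 and 2, beside 3.5% and 29.7%. Sema4a had 110 and 122 CPM in HDACi-CFC, against 60.1 and 40.4 CPM in Veh-CFC. Sema4d had 341 and 229 CPM in HDACi-CFC and 100.2 and 140 CPM in Veh-CFC. Sema6a had 48.3 and 76.9 CPM in HDACi-CFC, against 32.1 and 33.9 CPM in Veh-CFC.

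Microglia-like nuclei had 14 of 20 tested guidance genes higher and 0 lower, beside 20.8% and 18.5% of all genes (39.2% either way). Library totals gave 9 and 0, beside 13.9% and 28%, scaling to the number of nuclei gave 3 and 0, beside 5.37% and 28.9%, and DESeq2 called 6 higher. Without Veh-CFC replicate 2, 8 were called higher, and without HDACi-CFC replicate 2, 9. The DG granule marker list summed to 2070 and 2086 CPM in HDACi-CFC, against 1572 and 1531 CPM in Veh-CFC, with 8 of 10 markers detected in every library. The CA1 list was lower, at 411 and 429 CPM in HDACi-CFC and 666 and 744 CPM in Veh-CFC, and the CA3 and interneuron lists overlapped. The part of these lists was not tested. Sema4a, a semaphorin of immune cells, had 18 and 31 UMIs in HDACi-CFC, against 1 and 2 UMIs in Veh-CFC. The ratio of scaled UMIs was 21.2, with an exact 95% counting interval of 6.83 to 106. Sema4g had 84.4 and 41.0 CPM in HDACi-CFC and 13.1 and 12.2 CPM in Veh-CFC, on 35 UMIs against 10. Plxna4os1 had 24 UMIs in HDACi-CFC and 3 in Veh-CFC, a ratio of 10.4 (3.15 to 53.8), and lies antisense within Plxna4, which was called higher too. Sema4a, Sema4g and Plxna4os1 passed the count filter through HDACi-CFC alone. Their place among the 14 thus depended on the group where they were high. Slit3, Epha6 and Dcc were called higher at 4.21% to 6.43% of their neuronal levels, where 10% of neuronal genes were at or under 6.64%. Sema4a was at 839% of its neuronal level in HDACi-CFC and 33.9% in Veh-CFC. Sema4g was at 948% in HDACi-CFC and 193% in Veh-CFC.

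**Figure D3:**
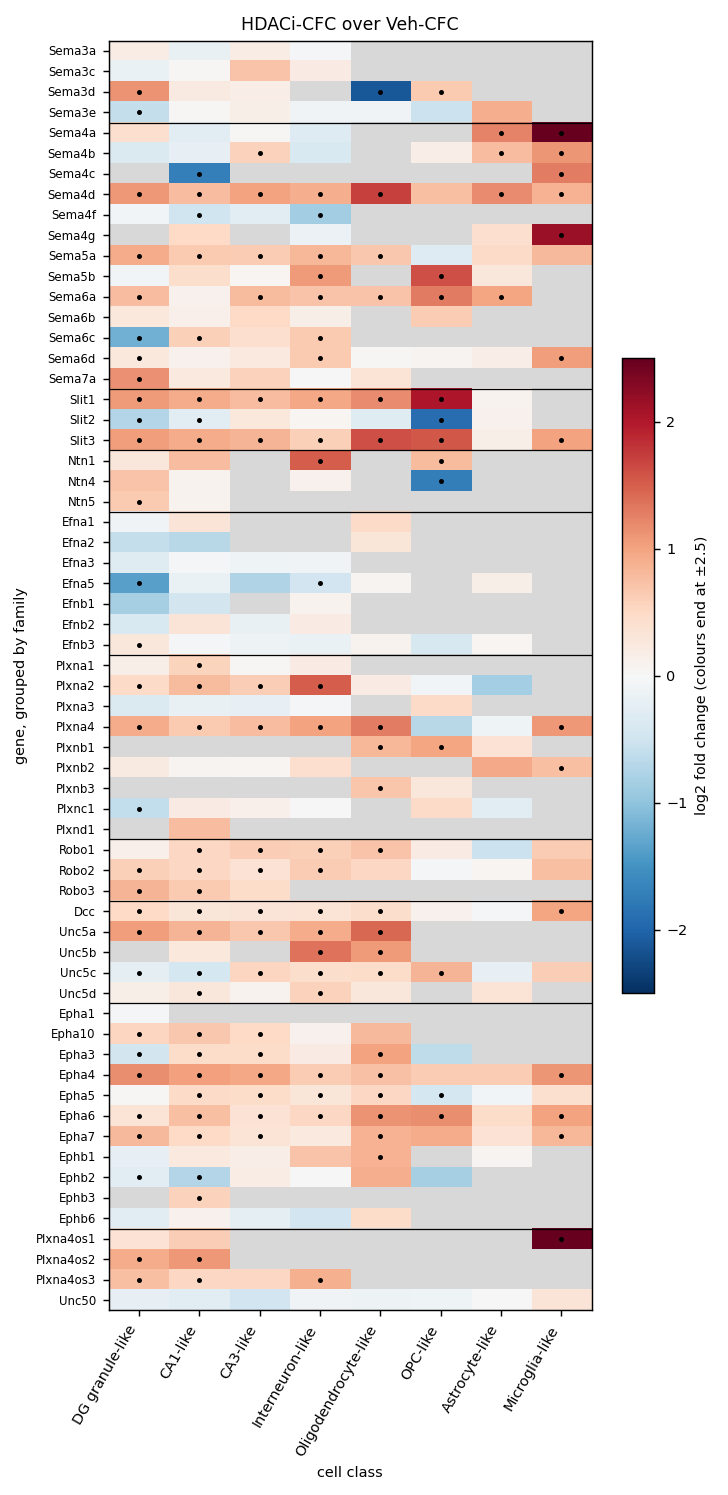
Log2 fold change of HDACi-CFC over Veh-CFC for the 62 guidance genes tested in at least 1 class (rows, grouped by family) in 8 classes (columns). Dots mark adjusted p below 0.05, grey marks genes below the count filter, and Slit1, Slit3 and Sema4d are red across most classes while Slit2 is called lower in 3.

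Across the 8 classes 62 guidance genes were tested at least once and 9 never. Of the 62, 36 were called only higher, 7 only lower, 6 in both directions and 13 in no class. Slit3, Sema4d and Epha6 were called higher in 7 of 8 classes, but Epha6 was below 0 in DG granule-like nuclei with both other scalings, and Slit3 and Epha6 were in the lowest 10% of glial to neuronal levels in oligodendrocyte-like, OPC-like and microglia-like nuclei. Slit2 was called lower in 3 classes (DG granule-like, CA1-like and OPC-like) and higher in 0, and in OPC-like nuclei of HDACi-CFC it was in that lowest 10% too. Epha3 rose in CA1-like, CA3-like and oligodendrocyte-like nuclei and fell in DG granule-like nuclei. Its log2 fold change was 0.46 in CA1-like nuclei and -0.45 in DG granule-like nuclei, and the difference of 0.84 ± 0.09 was called (SE, adjusted p = 2.56e-08, edgeR interaction). Unc5c rose in CA3-like, interneuron-like, oligodendrocyte-like and OPC-like nuclei, and the difference from DG granule-like nuclei was called in all 4. Per nucleus, Unc5c was below 0 in interneuron-like (-0.02) and oligodendrocyte-like nuclei (-0.05). Sema6c, at 1.24 and 1.83 CPM in HDACi-CFC and 4.32 and 3.31 CPM in Veh-CFC in DG granule-like nuclei, fell there and rose in CA1-like and interneuron-like nuclei. Sema6c was not called higher in either class with library totals. With library totals Epha3 stayed called higher in CA3-like nuclei (log2 0.21). It was not called in CA1-like nuclei (0.13), where the value per nucleus was 0.00. In oligodendrocyte-like nuclei Epha3 lay at 8.39% of its neuronal level in HDACi-CFC and at 5.09% in Veh-CFC. There, 10% of neuronal genes were at or under 6.4% in HDACi-CFC and 5.8% in Veh-CFC. The part of free RNA in that rise was not tested.

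The drug effect differed from that in DG granule-like nuclei for 20 of 60 guidance genes in CA1-like, 19 of 55 in CA3-like and 17 of 60 in interneuron-like nuclei. The same held for 15.7%, 15% and 16.5% of all genes. In glia the counts were 12 of 57 in oligodendrocyte-like, 7 of 60 in OPC-like, 4 of 57 in astrocyte-like and 7 of 59 in microglia-like nuclei, beside 18.2%, 9.25%, 9.65% and 10.9% of all genes. The glial counts lie near those shares.

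**Figure D4:**
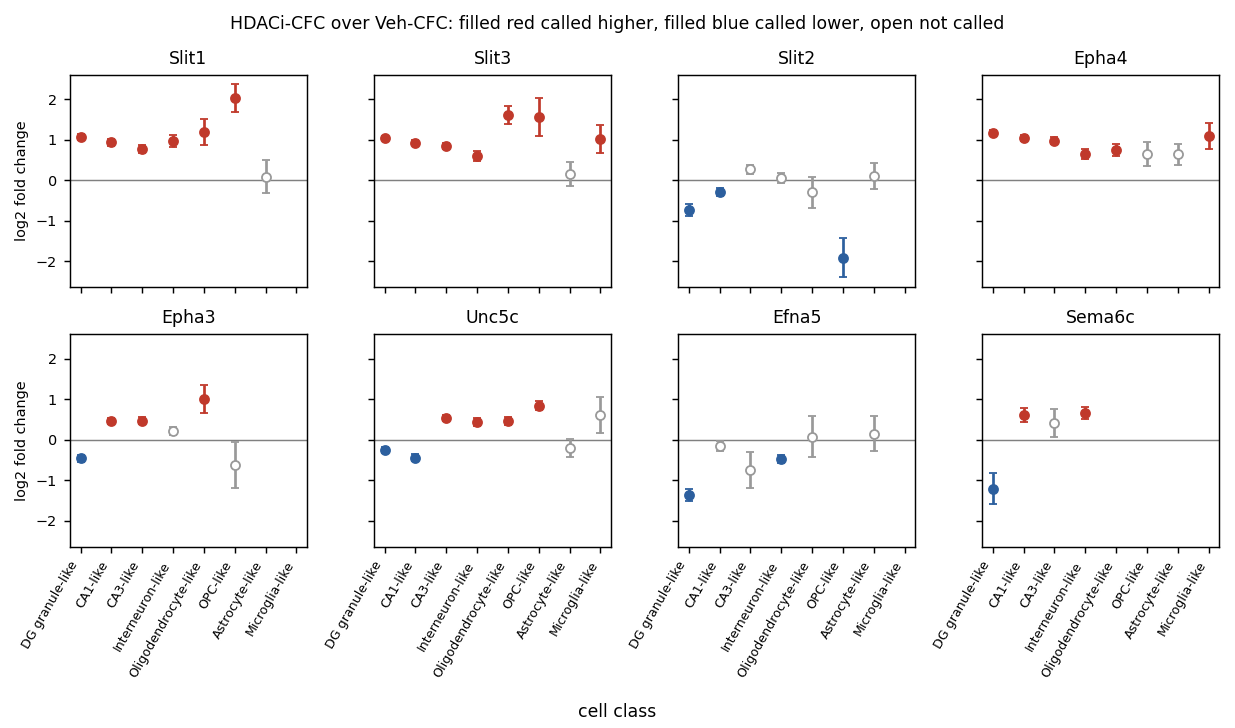
Log2 fold change of HDACi-CFC over Veh-CFC with its SE for 8 guidance genes in 8 classes, where filled red is called higher, filled blue called lower and open grey not called. Slit1, Slit3 and Epha4 lie above 0 in the 4 neuronal classes, Epha3, Unc5c and Sema6c lie below 0 in DG granule-like nuclei and above 0 in CA3-like nuclei, and classes without a point were not tested.

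Partners of these receptors were described in DG granule-like nuclei from lists of coreceptors, kinases and adaptors, and cytoskeleton effectors. Of 17 coreceptors or adhesion partners tested, 6 rose and 3 fell, with a median log2 fold change of 0.23. Of 16 kinases or adaptors 5 rose and 7 fell, with a median of -0.01, and of 15 cytoskeleton effectors 8 rose and 2 fell, with a median of 0.26. Over all genes tested in these nuclei 23.3% rose and 25.9% fell, 49.2% in either direction, and the median was 0.01. Nrp1, a class 3 semaphorin coreceptor, had 621 and 624 CPM in HDACi-CFC and 452 and 442 CPM in Veh-CFC. Nrp2 had 164 and 159 CPM in HDACi-CFC, against 101 and 93.9 CPM in Veh-CFC. Both rose.

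The Context pair asks whether the same genes differed without shock, and with 1 library per group it had no test. In DG granule-like nuclei 43 guidance genes had at least 100 UMIs. With library totals 4 were at least 1.5-fold higher in HDACi-Context and 11 at least 1.5-fold lower, beside 5.6% and 34.2% of all genes. With TMM scaling, which moves every log2 ratio up by 0.35, the counts were 14 and 6, beside 16% and 18.3%. Of 21 genes that had risen in CFC, 21 had a ratio above 0 in Context with TMM and 16 with library totals. Of all genes that had risen in CFC, 96.6% and 75.3% were above 0 by these scalings, so the guidance genes were near the rest. All 7 that had fallen in CFC and reached 100 UMIs were below 0 with both, as were 96.5% of all such genes with TMM and 99.8% with library totals. Among all genes regardless of CFC, 48.1% were below 0 with TMM and 71.9% with library totals. Epha4 had 901 CPM in HDACi-Context and 514 CPM in the library labelled Veh-Context, a log2 ratio of 0.81 (95% counting interval 0.76 to 0.86). Efna5 had 11.2 CPM in HDACi-Context and 31.3 CPM in the library labelled Veh-Context (log2 -1.48, interval -1.79 to -1.18). Slit2 had 9.45 CPM in HDACi-Context and 25.6 CPM in the library labelled Veh-Context (log2 -1.44, interval -1.78 to -1.11). Intervals cover counting error only. The microglia marker list summed to 226 CPM in DG granule-like nuclei of HDACi-Context and 393 CPM of the library labelled Veh-Context, against 103 to 124 CPM in the CFC libraries, and its part was not tested.

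The other classes of the Context pair were described in the same way. CA1-like nuclei had 1 guidance gene of 45 at least 1.5-fold higher and 4 lower with library totals, beside 4.58% and 27.1% of all genes. With TMM scaling 6 were higher and 3 lower, beside 12% and 14%. CA3-like nuclei had 3 of 35 higher and 2 lower with library totals, beside 4.31% and 20.1%, and 10 and 0 with TMM, beside 10.5% and 9.76%. Interneuron-like nuclei had 3 of 35 higher and 2 lower, beside 4.31% and 23.1%, and 7 and 2 with TMM, beside 12.5% and 10.3%. Oligodendrocyte-like nuclei had 2 of 17 higher and 4 lower, beside 10.2% and 28.5%, and 5 and 1 with TMM, beside 28.9% and 13.4%. There, 9 of 14 genes that had risen in CFC were above 0 in Context with TMM and 6 with library totals, beside 92.9% and 77% of all genes that had risen. OPC-like nuclei had 2 of 10 higher and 1 lower with library totals, beside 21.6% and 16.3%, and 5 and 1 with TMM, beside 38.4% and 7.12%. Astrocyte-like nuclei had 0 of 10 higher and 4 lower with library totals, beside 15.3% and 15.1%, with a median log2 ratio of -0.38 against 0.02 over all genes. With TMM they had 3 higher and 2 lower, beside 33.4% and 6.23%. Microglia-like nuclei had 2 guidance genes with at least 100 UMIs, of which 1 was higher with library totals and 2 with TMM, beside 18.5% and 33.2%. Below the limit of 100 UMIs, microglial Sema4a had 27 UMIs in HDACi-Context and 3 in the library labelled Veh-Context, a log2 ratio of 3.11 (1.41 to 5.47). Slit2 in OPC-like nuclei had 3 UMIs in HDACi-Context and 25 in the library labelled Veh-Context.

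**Figure D5:**
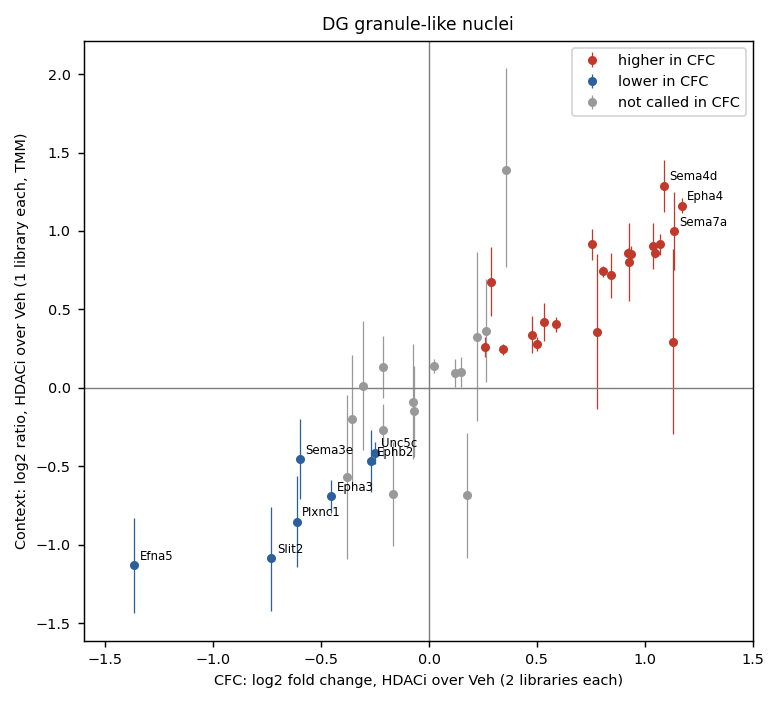
Guidance genes in DG granule-like nuclei: log2 fold change of HDACi-CFC over Veh-CFC (x) against the TMM-scaled log2 ratio of HDACi-Context over the library labelled Veh-Context with its 95% counting interval (y). The genes called higher in CFC lie above 0 on both axes and those called lower lie below 0 on both.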

How the data were processed

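Single-nucleus RNA of mouse hippocampus was measured in 6 libraries. The deposited matrices hold raw UMI counts per gene and barcode. Per the submitters' processing notes the authors used Cell Ranger 3.0.1, Seurat 4.0.3 and mm10; intron counting and strand are not given in the sources used here. Barcodes under 500 genes or over 5% mitochondrial UMIs and Scrublet doublets were dropped, and the rest clustered (scanpy 1.11.5, 2000 variable genes without the guidance genes, leidenalg 0.10.2). Counts were summed per library and class and tested with edgeR 4.0.16 (filterByExpr, TMM, quasi-likelihood, Benjamini-Hochberg over all genes of the class). A gene could pass the count filter through the libraries of 1 group alone. Interaction fits had library as a block. DESeq2 1.42.0, other scalings, filters, gates and left-out libraries were alternatives. The fit was tested on simulated data in DG granule-like and OPC-like nuclei. Planted changes were recovered in DG granule-like nuclei, but in OPC-like nuclei most were missed outside the highly expressed genes. The split by level was made after a first version had failed in OPC-like nuclei. The genes, lists and tests were chosen with earlier results of these data known. Named genes were called, apart between groups and at a mean log2 CPM of at least 3: the 8 highest and 8 lowest in DG granule-like nuclei, the 3 highest and 3 lowest elsewhere, and their partners. Other genes named were singled out after their values were seen. One group of partner genes in the fit is not reported here.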

Additional observations from a re-analysis of the deposited data

Results flagged for a closer look

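The drug effect (HDACi-CFC over Veh-CFC) differed between a class and DG granule-like nuclei in an edgeR interaction test for the genes below. Listed are genes called in opposite directions, or with a difference of at least 0.8 on the log2 scale and a call in either class. Each value is the log2 effect in the class minus that in DG granule-like nuclei. In CA1-like nuclei the difference was 1.72 for Sema6c, -0.94 for Sema7a, 0.84 for Epha3 and 1.16 for Efna5. In CA3-like nuclei the difference was 1.55 for Sema6c, 0.70 for Unc5c, 0.92 for Slit2, 0.84 for Sema4b and 0.83 for Epha3. In Interneuron-like nuclei the difference was 0.94 for Plxna2, 1.76 for Sema6c, 0.60 for Unc5c, -0.88 for Sema4f, -1.23 for Sema7a and 1.04 for Sema5b. In Oligodendrocyte-like nuclei the difference was 0.85 for Unc5c, 1.35 for Ephb2, -3.07 for Sema3d, 1.22 for Ephb1, 0.91 for Epha6, 1.60 for Epha3 and 1.58 for Efna5. In OPC-like nuclei the difference was 0.98 for Unc5c, -1.71 for Plxna4, -2.55 for Ntn4, -1.37 for Sema5a and 1.56 for Sema5b. In Astrocyte-like nuclei the difference was 1.60 for Sema3e, -0.91 for Plxna4, 1.23 for Sema4b and 1.62 for Efna5. In Microglia-like nuclei the difference was 4.10 for Sema4a, 3.14 for Plxna4os1 and 1.57 for Sema4b. Epha3, Unc5c, Sema6c and Sema3d were called in opposite directions in the 2 classes compared for at least 1 class. Sema3d, Ntn4, Sema4a and Plxna4os1 rest on few UMIs in 1 of the groups. Epha3 and Epha6 in oligodendrocyte-like nuclei of Veh-CFC were in the lowest 10% of glial to neuronal levels.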

How the results depend on the processing

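Where an alternative run gave a value, none of the 45 pairs of gene and class named by the rule changed direction. The rule required a call and groups apart in the same libraries, so a reversal was unlikely from the start. With DESeq2 8 pairs were no longer called, with scaling to the number of nuclei 7, and with nuclei gated by their own markers 3. In the fit with the replicate number as a block, the counts of higher and lower genes were 22 and 9 in DG granule-like, 24 and 5 in CA1-like, 22 and 0 in CA3-like and 13 and 0 in microglia-like nuclei, and it moved no count by over 1.5 times; deviations of same-numbered libraries correlated at 0.01 to 0.23 with 2 pairs, so the numbers were not taken as pairing. Counts did move with scaling. Library totals gave 12 higher and 22 lower in DG granule-like, 10 and 15 in CA1-like, 12 and 1 in CA3-like, 13 and 5 in interneuron-like, 11 and 3 in oligodendrocyte-like, 7 lower in OPC-like, 2 lower in astrocyte-like and 9 higher in microglia-like nuclei. Scaling per nucleus gave 8 and 18, 1 and 11, 1 and 1, and 3 and 4 in the first 4 classes, 5 higher in oligodendrocyte-like, 5 and 7 in OPC-like, 1 and 2 in astrocyte-like and 3 higher in microglia-like nuclei. DESeq2 gave 5 lower in DG granule-like, 2 in CA1-like, 1 in interneuron-like and 0 in OPC-like nuclei, and 6 higher in microglia-like nuclei. Fitting all 6 libraries gave 12 higher in oligodendrocyte-like and 2 lower in astrocyte-like nuclei. Gating nuclei by their own markers gave 6 higher in microglia-like nuclei and the same highest vehicle class for 35 of 63 genes. After seeing the data, cluster 0 alone gave 5 lower in DG granule-like nuclei, and clusters 3 and 4 alone gave 3 and 2 lower in CA1-like nuclei. Leaving out 1 library gave 17 to 21 higher and 5 to 9 lower in DG granule-like, 19 to 21 and 3 to 5 in CA1-like, 14 to 19 higher in CA3-like, 17 to 24 and 1 to 2 in interneuron-like, 15 to 17 and 1 to 1 in oligodendrocyte-like, 8 to 9 and 0 to 2 in OPC-like, 3 to 4 higher in astrocyte-like and 8 to 10 higher in microglia-like nuclei. The lowest counts of lower calls came without Veh-CFC replicate 1 in DG granule-like (5) and OPC-like (0) nuclei. TMM scaling of the Context pair gave 14 at least 1.5-fold higher and 6 lower in DG granule-like, 6 higher in CA1-like, 10 and 0 in CA3-like, 7 higher in interneuron-like, 5 and 1 in oligodendrocyte-like, 5 higher in OPC-like, 3 and 2 in astrocyte-like and 2 higher in microglia-like nuclei. The cause of these moves was not tested. Classes with few nuclei have less power, so a guidance gene not called in OPC-like, astrocyte-like or microglia-like nuclei is not shown to be unchanged.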
